A study of Mus musculus with 8 samples.

Results

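The genes described here are 46 genes of the cell cycle, taken as a fixed list of gene symbols and looked up among the probes of mouse bone marrow macrophages. The list was split by role into 13 genes of DNA replication and its nucleotide supply, 22 genes of G2 and mitosis, 8 cyclins and kinases of G1, and 3 inhibitors of cyclin-dependent kinases. Of the 46 genes, 44 had at least 1 probe, 98 probes in all, on an array whose annotation names 19057 genes. A probe was kept when it reached an intensity of 100 on at least 4 of the 8 arrays, which kept 62 of the 98 probes and 36 of the 44 genes, among 7982 kept genes in all. Mki67 and Ccnb1, a proliferation antigen and a mitotic cyclin, were named by no probe, so their expression was not analysed here and they enter only the promoter comparison.

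Expression was measured on Illumina mouse beadchips hybridised with biotin-labelled RNA from bone marrow macrophages, and the study compared wild-type mice with mice lacking Vav1, a signalling protein of blood cells. The labels put 4 libraries in the wild-type group, WT 1 to WT 4 (strain C57BL/6, Vav1+/+), and 4 in the knockout group, KO 1 to KO 4 (Vav1-/-). Both groups came from males and females aged 7 to 12 weeks that were kept free of specific pathogens, and the sources used here give no treatment, no culture conditions and no count of animals. Whether the libraries of a group came from separate animals is not stated, so the p-values measure library-to-library spread alone, and this may be technical. In total RNA from a culture, fewer dividing cells and less RNA per dividing cell cannot be told apart.

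Facts about the arrays that touch every result come first. The single Vav1 probe went against the labels: it read 1825, 1642, 267 and 384 in WT 1 to WT 4 and 1805, 1699, 308 and 288 in KO 1 to KO 4, so the names WT and KO below stand for the libraries labelled that way. The arrays were alike except for WT 4, which had Pearson correlations of 0.839 to 0.901 with the other 7 over all kept probes, where those 7 correlated with each other at 0.971 to 0.996. Comparisons between the labels are therefore given with and without WT 4. All 9 macrophage markers on the array were kept. By the brightest probe of each gene, they ran from Itgam, an integrin chain, at 131 to 175 to the lysozyme genes Lyz1 and Lyz2 at 11685 or more in every library. Another bright probe of Lyz2 read 1140 in WT 4 and 11805 to 21720 in the other 7. Their summed intensity, to which the lysozyme genes gave the largest part, had a range of 46956 to 65083 in the WT libraries and 49379 to 56443 in the KO libraries. The highest sum was that of WT 4, and the other 7 had 46956 to 56443. The single markers did not share this order. By brightest probe, WT 4 was highest for Lyz1, Lyz2 and Adgre1 and within the others for Mrc1, Mertk and Itgam. It was lowest for Csf1r (2051 against 2748 to 5218), Cd14 (337 against 578 to 1218) and Fcgr1 (341 against 384 to 584). Of 10 markers of dividing myeloid progenitors only Kit, a stem cell factor receptor, was kept, and the other 9, Mpo, Elane and Cd34 among them, read 75.9 to 119, around the array median of 86.2. The summed level of the 10 was 886 to 1122 in WT and 869 to 1080 in KO. Kept markers numbered 3 of 7 for neutrophils, 2 of 6 for erythroid cells and megakaryocytes, 0 of 7 for stromal cells and 0 of 8 for lymphocytes. In the erythroid and megakaryocyte list Pf4 was bright, at 3485 to 7143 over the 8 libraries, and Epor read 85.4 to 109.

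A cell that divides passes through G1, copies its DNA in S phase, checks the copy in G2 and parts the chromosomes in mitosis. D cyclins with CDK4 or CDK6, followed by E cyclins with CDK2, inactivate the retinoblastoma protein and free E2F factors, which switch on replication genes, while a later wave of transcription through the MuvB complex, B-MYB and FOXM1 switches on mitotic genes. Macrophages grown from bone marrow divide in response to the growth factor M-CSF, and D-type cyclins, Ccnd1 among them, are known targets of its receptor.

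Both waves of genes are known for their promoter motifs, and these are shown here because they set the DNA replication and mitosis genes apart by sequence, a property that does not come from the arrays. RefSeq windows of 300 bases, from 250 before to 50 after the transcription start on GRCm38.p6, were found for 37 of the 46 genes, 5 of them with 2 windows. The motifs searched, on both strands, were the E2F motif as TTTCCCGC, TTTGGCGC or TTTCGCGC, the cell cycle homology region (CHR) as TTTGAA or TTCGAA, and the CCAAT box that binds NF-Y. The E2F motif was present in 6 of 11 DNA replication genes (54.5%), in 1 of 18 mitosis genes (5.56%) and in 2.12% of all 27025 genes with a window. The CHR was present in 14 of 18 mitosis genes (77.8%), in 2 of 11 replication genes (18.2%) and in 21.7% of all genes. The CCAAT box was present in 72.7% of the replication genes and 88.9% of the mitosis genes, against 41.1% of all genes, and all 14 mitosis genes with a CHR also had it. The windows of 2 mitosis genes and 2 replication genes that recur below are printed with the motifs in capitals, 5′ to 3′ on the strand of the gene, and E2F matches that overlap form a single run of capitals. Cdk1 lies at chr10:69352863-69353162 on the minus strand, Top2a at chr11:99024140-99024439 on the minus strand, Mcm5 at chr8:75109259-75109558 on the plus strand and Mcm6 at chr1:128359656-128359955 on the minus strand.
Cdk1: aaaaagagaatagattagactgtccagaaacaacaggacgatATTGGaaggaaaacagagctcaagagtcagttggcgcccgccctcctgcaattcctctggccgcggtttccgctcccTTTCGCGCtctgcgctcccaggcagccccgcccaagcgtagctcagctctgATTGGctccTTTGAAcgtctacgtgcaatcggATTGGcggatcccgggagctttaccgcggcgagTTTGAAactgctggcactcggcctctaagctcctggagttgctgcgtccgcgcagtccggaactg
Top2a: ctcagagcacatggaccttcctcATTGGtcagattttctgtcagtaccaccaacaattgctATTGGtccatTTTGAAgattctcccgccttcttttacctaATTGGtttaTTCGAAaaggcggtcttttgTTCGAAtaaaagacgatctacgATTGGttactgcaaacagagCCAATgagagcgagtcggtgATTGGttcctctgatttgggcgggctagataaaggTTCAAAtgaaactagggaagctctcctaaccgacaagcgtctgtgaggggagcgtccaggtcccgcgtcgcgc
Mcm5: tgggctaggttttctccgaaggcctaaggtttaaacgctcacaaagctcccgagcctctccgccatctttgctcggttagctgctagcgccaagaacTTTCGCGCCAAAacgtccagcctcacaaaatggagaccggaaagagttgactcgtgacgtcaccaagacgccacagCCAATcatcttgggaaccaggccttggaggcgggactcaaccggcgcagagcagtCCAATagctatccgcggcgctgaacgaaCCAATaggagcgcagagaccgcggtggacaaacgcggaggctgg
Mcm6: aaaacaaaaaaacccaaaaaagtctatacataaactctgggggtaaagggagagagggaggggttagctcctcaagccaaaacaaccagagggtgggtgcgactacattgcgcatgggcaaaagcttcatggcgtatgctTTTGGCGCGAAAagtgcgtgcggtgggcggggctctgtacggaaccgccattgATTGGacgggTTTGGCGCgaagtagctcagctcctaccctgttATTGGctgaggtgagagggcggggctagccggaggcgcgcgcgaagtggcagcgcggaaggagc
The Cdk1 window holds 2 CHR matches, 3 CCAAT boxes and 1 E2F match, and the Top2a window holds 4 CHR matches and 6 CCAAT boxes with no E2F match. Mcm5 and Mcm6 have the opposite pattern, with 2 and 3 E2F matches, 3 and 2 CCAAT boxes and no CHR match. A match describes the letters of the window, not a bound site.

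**Figure D1:**
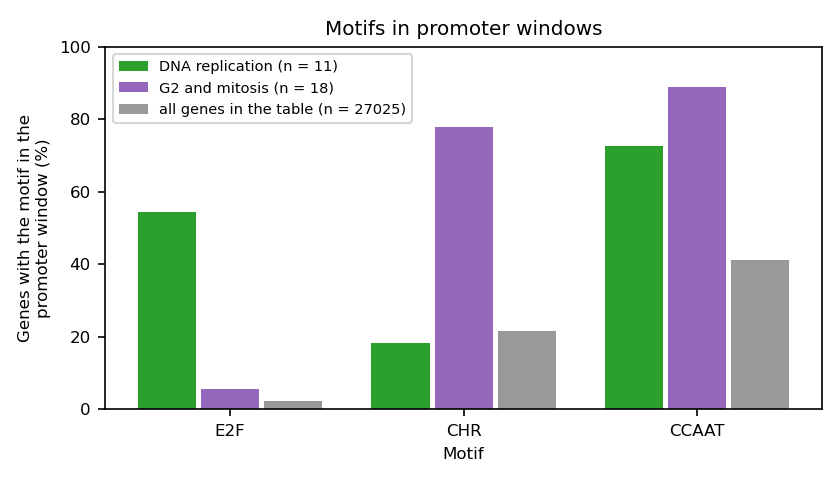
Share of genes (percent, vertical axis) whose promoter window holds each motif, for the 11 DNA replication genes, the 18 G2 and mitosis genes and all 27025 genes of the table. The E2F motif was found in 54.5% of the replication genes and the CHR in 77.8% of the mitosis genes.

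Every DNA replication gene of the list was detected, where 7982 of all 19057 named genes were kept. All 13 were kept, with 22 of their 32 probes. Outside WT 4 they were about as even as all kept genes. The highest of the 7 libraries was a median of 1.32 times the lowest (range over genes 1.12 to 2.45), against 1.30 over all kept genes. The 6 subunits of the MCM helicase, which unwinds DNA at the fork, were all kept. Mcm4 read 2159, 2420, 2136 and 1888 in WT 1 to WT 4 and 1977, 2002, 2208 and 2073 in KO 1 to KO 4. Mcm5 read 1383, 1469, 1394 and 1088 in the WT libraries and 1639, 1448, 1501 and 1559 in the KO libraries. The lowest library for Mcm5 was WT 4, and the groups overlapped because WT 2 read above KO 2. Mcm6, by its brightest probe, read 2642, 2469, 2690 and 3087 in WT and 2914, 3087, 2310 and 2506 in KO. Mcm3 read 153, 241, 179 and 105 in WT and 198, 178, 208 and 212 in KO. Mcm7 read 272, 247, 261 and 144 in WT against 310, 289, 241 and 270 in KO. For both Mcm3 and Mcm7 the lowest library was WT 4 and the other 7 overlapped between the labels. Mcm2 ranged from 331 to 437 in 7 libraries and read 219 in WT 4.

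Among the loading factors, Cdt1, which brings the helicase to origins, read 1487, 1341, 1114 and 1245 in WT and 1493, 1413, 1096 and 1203 in KO, nearly the same by number in both labels. Cdc6, its partner in loading, ranged from 241 to 302 over the 8 libraries. Gins2, a subunit of the active helicase, ranged from 236 to 286 in 7 libraries and read 461 in WT 4. Pcna, the sliding clamp of DNA polymerases, was the least even member of the group outside Tyms, with 766 to 1669 in 7 libraries and 2002 in WT 4. Of the enzymes that supply nucleotides, Tyms, thymidylate synthase, read 315, 382, 479 and 140 in WT and 333, 344, 773 and 533 in KO. Its highest values were those of KO 3 and KO 4, and KO 1 and KO 2 lay among the WT libraries. Both kept probes of Tyms were lowest in WT 4. Probes of Tyms that were not kept put WT 4 highest, at 154 against 87.9 to 95.3 elsewhere and at 137 against 83.9 to 89.1. A further one read 84.6 in WT 4, within its range elsewhere. Rrm2, the regulated subunit of ribonucleotide reductase, read 314, 253, 271 and 466 in WT and 290, 242, 229 and 305 in KO. Rrm1, the large subunit, ranged from 880 to 982 in 7 libraries and read 573 in WT 4.

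Genes of G2 and mitosis on the list were detected in part. Of the 20 with a probe, 14 were kept, and Ccnb2, Ube2c, Bub1, Kif20a, Cenpe and Hmmr were not. These 6 genes, together with Cdk6 of G1 and the inhibitor gene Cdkn1b, had 12 probes that read 73.1 to 110 over all libraries, near the array median, and Ube2c came closest with 3 arrays at or above 100. No order can be read among values this close to the background. The gap between the roles did not recur among further genes outside the list. Of those with a probe, 39 of 45 mitosis genes and 36 of 43 replication genes were kept. For the kept mitosis genes the ratio of the highest to the lowest of the 7 libraries outside WT 4 had a median of 1.34 (range 1.19 to 2.03).

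The kinase that starts mitosis, Cdk1, read 536, 632, 704 and 149 in WT and 669, 606, 816 and 822 in KO. Its S and G2 partner cyclin A2, encoded by Ccna2, was dim, at 96.7, 97.4, 114 and 169 in WT and 99.5, 106, 92.6 and 109 in KO. Thus WT 4 was the lowest library for Cdk1 and the highest for Ccna2. Top2a, the topoisomerase that untangles sister chromatids, read 478, 973, 705 and 114 in WT and 717, 646, 846 and 807 in KO. Aurkb, the kinase of the chromosomal passenger complex, read 384, 514, 427 and 113 in WT and 423, 412, 467 and 487 in KO. In both genes the KO libraries lay inside the range of WT 1 to WT 3, and WT 4 was far below all others. Plk1, a kinase of spindle assembly and mitotic exit, had the reverse pattern, at 744, 718, 711 and 1241 in WT and 652, 607, 795 and 822 in KO.

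On their brightest probes, genes of the spindle and centromere showed no library that far out. Prc1, which bundles microtubules at the spindle midzone, read 1974, 2326, 1932 and 2071 in WT and 2225, 1881, 2659 and 2512 in KO. Nusap1, a spindle microtubule protein, read 1268, 1101, 1094 and 1334 in WT and 1024, 1125, 1324 and 1206 in KO. Cenpa, the histone H3 variant of the centromere, read 3897, 4130, 2473 and 3815 in WT and 4041, 3375, 2976 and 2884 in KO. The groups overlapped in all 3 genes. The other kept mitosis genes were Cdc20 (375 to 461), an activator of the anaphase-promoting complex, Aurka (417 to 579), a spindle pole kinase, Bub1b (447 to 657), a checkpoint protein, Birc5 (582 to 792), the passenger protein survivin, Tpx2 (397 to 650), an activator of Aurora A, and Kif11 (126 to 210), a spindle motor. Each range covers all 8 libraries on the brightest probe. The other kept probes of Birc5 were low in WT 4, at 133 against 327 to 449 elsewhere and at 141 against 361 to 502.

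**Figure D2:**
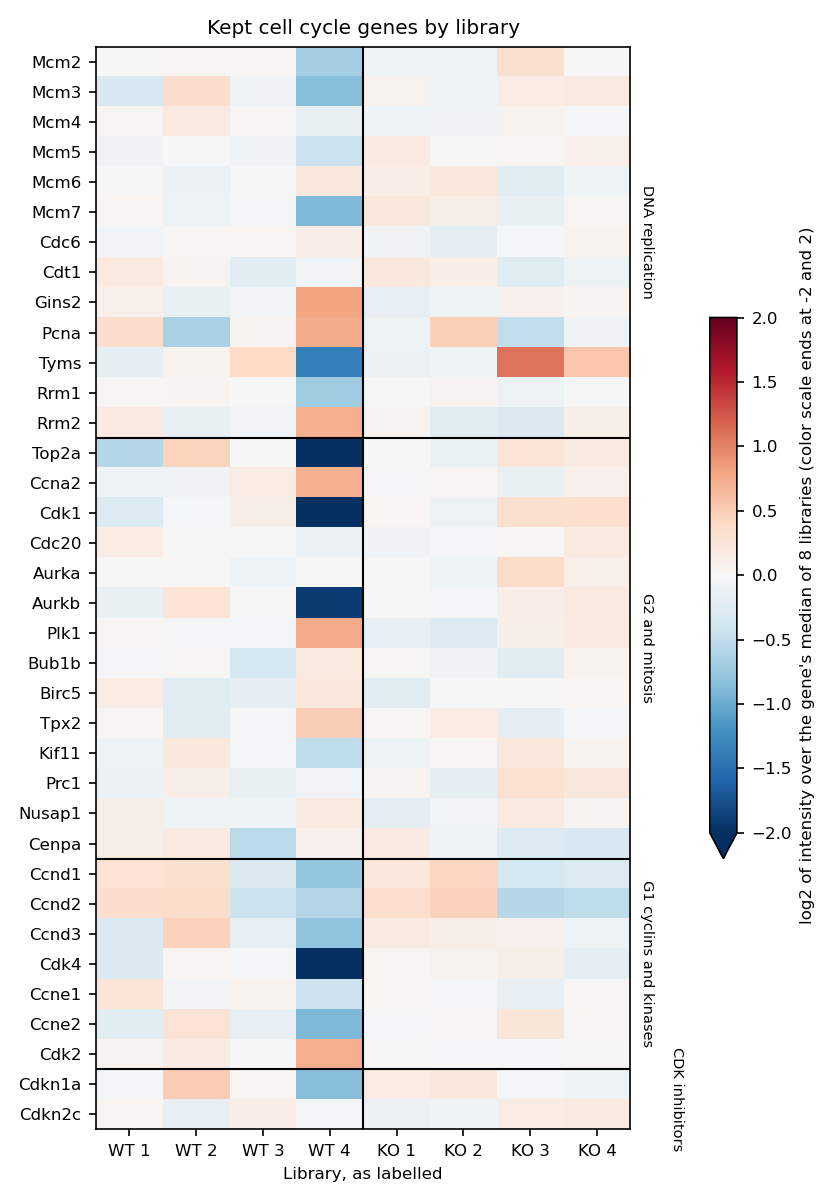
Level of the 36 kept cell cycle genes (rows, by role) in each library (columns, as labelled), as log2 of the intensity over the median of the gene's 8 libraries; values beyond the ends of the colour scale take its end colour. Each gene is shown by its brightest kept probe. The strongest colours fall in the WT 4 column, where Top2a, Cdk1, Aurkb and Cdk4 are low and Plk1, Rrm2 and Cdk2 are high on that probe.

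Of the G1 cyclins and kinases 7 of 8 were kept. Ccnd1, cyclin D1, read 4336, 4427, 2914 and 2073 in WT and 4177, 4807, 2785 and 2943 in KO. Ccnd3, cyclin D3, read 354, 600, 389 and 252 in WT and 488, 468, 462 and 405 in KO. Cdk4, the kinase bound by D cyclins, read 391, 488, 464 and 84.6 in WT and 489, 499, 515 and 414 in KO. The WT 4 value of Cdk4 was close to the array median of 86.2, and the other 7 libraries lay within 391 to 515. Ccne2, cyclin E2, read 141, 198, 145 and 87.1 in WT and 160, 165, 193 and 166 in KO. Cdk2, the kinase of E and A cyclins, read 1371, 1478, 1306 and 2178 in WT and 1308, 1295, 1296 and 1330 in KO. On this brightest probe of Cdk2 the 4 KO libraries thus differed from each other by little (1307 ± 16.5, SD, n = 4), and WT 4 was the high library. The other kept probes of Cdk2 went the other way. On them WT 4 was the lowest library, at 86.1, 283 and 85.4, with log2 fold changes of 0.25, 0.19 and 0.38. Ccne1 ranged from 85.3 to 136 over the 8 libraries. Ccnd2, cyclin D2, was kept with exactly the 4 libraries numbered 1 and 2 above 100.

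Among the inhibitors of cyclin-dependent kinases, Cdkn1a, the p53 target p21, read 1236, 1799, 1303 and 702 in WT and 1411, 1478, 1238 and 1197 in KO. Cdkn2c, the CDK4 and CDK6 inhibitor p18, read 454, 393, 487 and 432 in WT and 407, 417, 490 and 505 in KO. The labels overlapped in both.

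The study was designed to compare Vav1-/- with Vav1+/+, and the test here compared the libraries as labelled, which the Vav1 probe did not follow. In the limma test over all 13479 kept probes, 0 of the 36 genes passed an adjusted p of 0.05, against a background of 0% of probes called, and adjusted p over the 36 ran from 0.795 to 0.999. At an unadjusted p under 0.05, 0 of the 36 were called by limma, against 27 of all kept genes (0.338%). Of the 36 genes, 22 had a higher mean in KO and 14 a lower one, or 61.1% higher against 43.4% of all kept genes, and without WT 4 the counts were again 22 and 14, against 46.2% of all kept genes higher. In 0 of the 36 did the 4 KO libraries lie entirely above or below the 4 WT libraries, where 1.13% of all kept genes did.

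The median log2 fold change, KO over WT, was 0.0023 over the replication genes (7 higher and 6 lower), 0.0035 over the mitosis genes (7 and 7) and -0.04 over all kept genes. Without WT 4 these medians were 0.02 (8 and 5), 0.04 (10 and 4) and -0.0087. They rest on the brightest probe of each gene. With the mean of a gene's kept probes, in all 8 libraries, they were 0.21 for replication, 0.14 for mitosis and -0.01 over all kept genes. That mean was not fitted without WT 4. For the 9 kept G1 genes and inhibitors the median was 0.13, with 8 higher and 1 lower, and without WT 4 it was -0.08, with 4 higher and 5 lower. The direction of the G1 genes thus turned on 1 library.

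The largest fold changes were those of genes that were low in WT 4 by their brightest probe. Top2a had a log2 fold change of 0.84 ± 0.62 (SE, 4 against 4 libraries, adjusted p = 0.795, limma), which became 0.13 without WT 4. Cdk4 was at 0.80 ± 0.57 with WT 4 and 0.10 without it, and Aurkb at 0.58 ± 0.47 and 0.03. Cdk1 was at 0.79 ± 0.48 with WT 4 and 0.23 ± 0.15 without it, and Tyms at 0.69 ± 0.44 and 0.28 ± 0.30. Smaller values of the same kind were those of Ccne2 (0.39, then 0.12), Mcm3 (0.35, then 0.10), Mcm7 (0.34, then 0.10) and Ccnd3 (0.28, then 0.07). Genes that were high in WT 4 by their brightest probe had negative values. Rrm2 was at -0.28 ± 0.22, Cdk2 at -0.25 ± 0.17, Ccna2 at -0.23 ± 0.22 and Plk1 at -0.22 ± 0.21. Without WT 4 these were -0.08, -0.08, -0.01 and -0.02. Mcm5 had the smallest unadjusted p of the 36 genes (0.132, adjusted p = 0.795, limma), with 0.22 ± 0.13 and an interval of -0.08 to 0.51, and it was at 0.12 ± 0.09 without WT 4.

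The intervals show what 4 libraries a group could resolve. For Mcm4 the 95% interval of the log2 fold change ran from -0.32 to 0.21, for Nusap1 from -0.34 to 0.26, for Prc1 from -0.17 to 0.47 and for Cdt1 from -0.33 to 0.34. For Top2a it ran from -0.55 to 2.23 and for Cdk4 from -0.50 to 2.09. A doubling, or 1 on this scale, lies outside the first 4 intervals and inside the last 2. The median standard error over the 36 genes was 0.20, and 0.13 without WT 4.

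**Figure D3:**
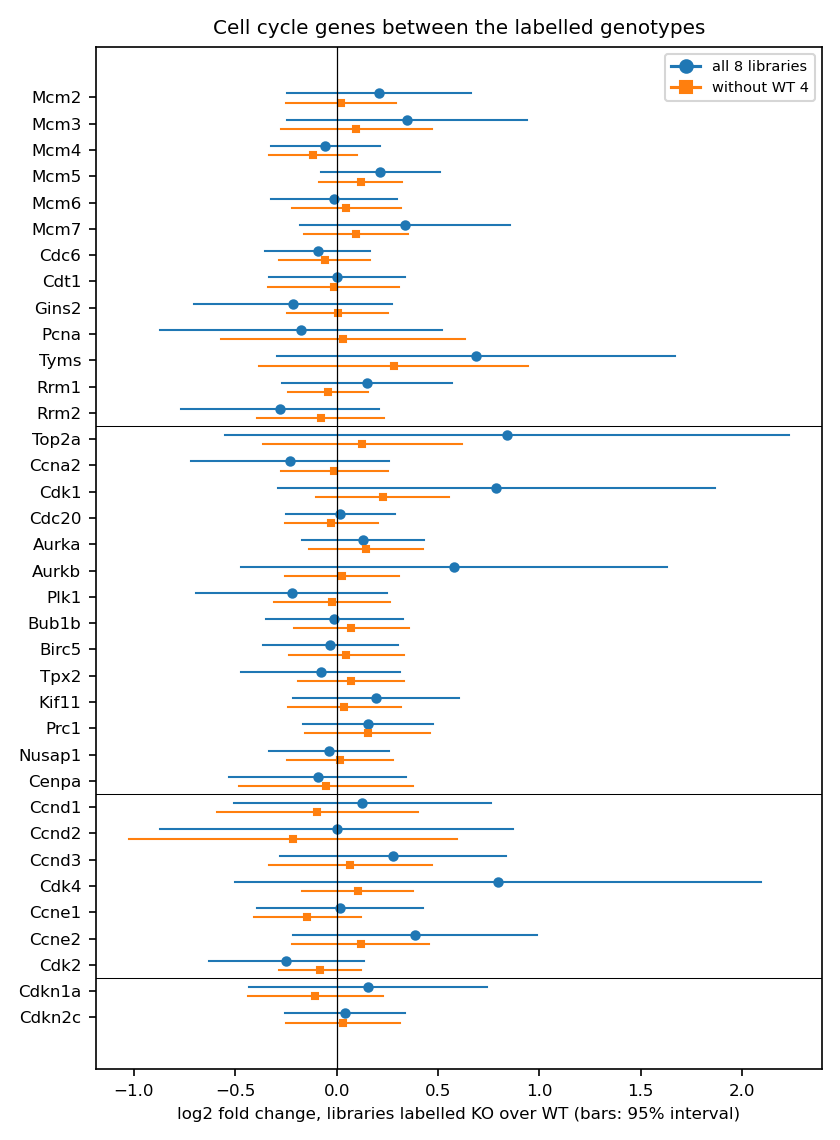
Log2 fold change between the libraries labelled KO and WT (horizontal axis, points, with 95% intervals as bars) for the 36 kept genes, from all 8 libraries (circles) and without WT 4 (squares). Every interval from all 8 libraries includes 0, and Top2a moved from 0.84 to 0.13 and Cdk4 from 0.80 to 0.10 without WT 4.

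How WT 4 differed was not the same for all cell cycle genes. It was the lowest of the 8 libraries in 19 of the 36 genes (52.8%) and the highest in 11 (30.6%), where over all kept genes it was lowest in 34.8% and highest in 44.1%. By role, it was lowest in 7 of 13 replication genes, 5 of 14 mitosis genes and 6 of 7 G1 genes. Of the 62 kept cell cycle probes, 14 (22.6%) read at or under 1/2 of the median of the other 7 libraries, against 11% of all kept probes, and 0 read at or above 2 times it, against 4.12%. These 14 were spread over the roles, with 5 of 22 replication probes, 5 of 21 mitosis probes and 4 of 19 probes of G1 genes and inhibitors. The group level of a library was the median log2 difference from each gene's mean of the 8 libraries, WT 4 included, after background correction. In WT 4 it was -0.16 for replication (-0.0086 to 0.08 in the other 7) and 0.07 for mitosis (-0.09 to 0.11). It was -0.73 for G1 genes and inhibitors (-0.08 to 0.43) and 0.10 for all kept genes.

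Probes of the same gene did not give the same answer in WT 4. Of the 17 cell cycle genes with at least 2 kept probes, 6 had probes whose ratio to the other 7 libraries differed by 2-fold or more in WT 4, and over all 2763 such genes the share was 32.2%. In the other libraries the share was 0.145% to 1.34%, with Rrm2 in KO 3 as the only cell cycle gene. Probes above 100 in WT 4 alone were not kept, as with Tyms, and do not enter these counts. For Cdk4, 1 probe read 84.6 in WT 4 against 391 to 515 elsewhere, and the other read 285 against 143 to 171, a disagreement of at least 10.9-fold, since 84.6 is not above the array median. For Mcm6, a probe that read 511 to 901 elsewhere was at 92.9 in WT 4, another that read 802 to 1342 was at 294, and the brightest stayed within its range at 3087. Those Mcm6 probes disagreed by at least 9.92-fold, with 92.9 also close to that median. For Top2a, the probe that read 478 to 973 elsewhere was at 114, and a dim one was at 157 against 110 to 131, which disagreed by 8.38-fold. Gins2, at 82.7 against 242 to 322 on 1 probe and 461 against 236 to 286 on another, disagreed by at least 6.03-fold, Cdk2, with a probe at 85.4, by at least 3.55-fold and Birc5 by 3.34-fold. The value of these genes in WT 4 therefore depended on the probe, and which part of the transcript each probe reads was not tested. The probes of Rrm2 (1.90 and 1.72 times the median of the other 7) and of Cdkn1a (0.539, 0.517 and 0.566 times) moved together in WT 4.

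**Figure D4:**
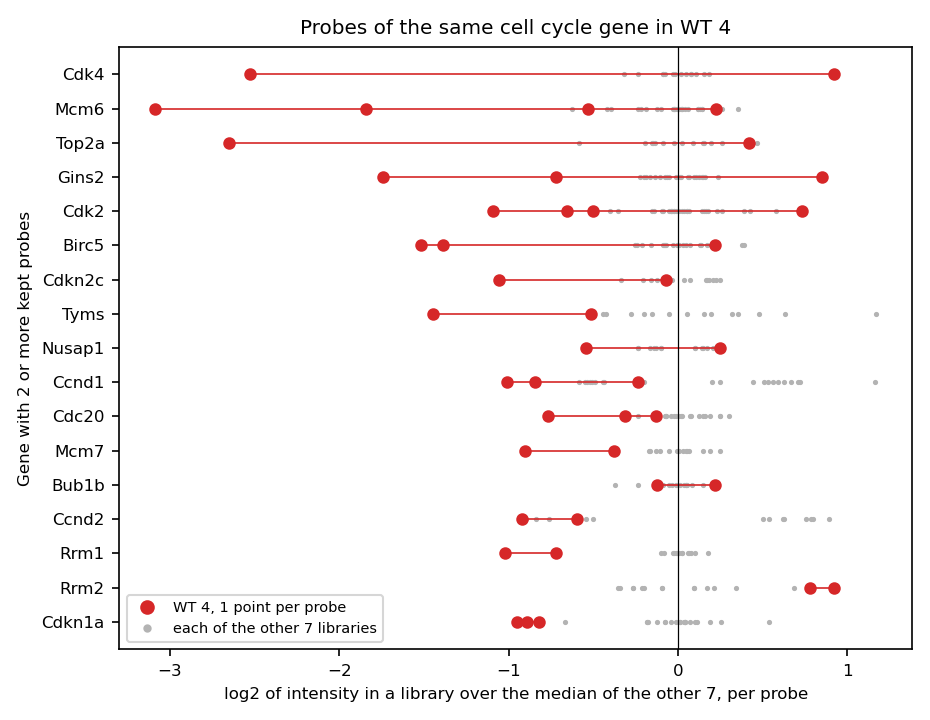
Log2 ratio of each kept probe to its median in the other 7 libraries (horizontal axis) for the 17 cell cycle genes with at least 2 kept probes; large points are WT 4, 1 per probe, joined by a line, and small points are the other 7 libraries. Probes of Cdk4, Mcm6, Top2a, Gins2, Cdk2 and Birc5 spread over 2-fold or more in WT 4.

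Ccnd1, Ccnd2 and Cdt1 parted the libraries by number and not by label, as the Vav1 probe did, with the libraries numbered 1 and 2 of both labels above those numbered 3 and 4. The per-library values of Ccnd1 and Cdt1 are those given above, and Ccnd2 read 161, 162, 93.0 and 83.2 in WT and 157, 173, 84.5 and 88.0 in KO. The ratio of the mean of the libraries numbered 1 and 2 to that of the others was 1.66 for Ccnd1 and 1.23 for Cdt1, and without WT 4 it was 1.54 and 1.26. For Ccnd2 it was at least 1.87, or 1.84 without WT 4, since the lower libraries read close to the array median. These 3 of 36 genes, with 0 in the other direction, compare with 7.83% of all kept genes that parted the numbers in either direction, 4.13% higher and 3.7% lower in the libraries numbered 1 and 2. A share this near the background is no result about cell cycle genes. Without WT 4, 4 of the 36 genes were higher in the libraries numbered 1 and 2, with Cenpa added, and 3 were lower, namely Cdk1, Tyms and Cdkn2c. The share over all kept genes was not computed without WT 4, so these counts have no background. All 3 kept probes of Ccnd1 parted the numbers the same way. Both kept probes of Ccnd2 did too, but they passed the filter only through the libraries numbered 1 and 2, so this adds no support. Kit, the kept progenitor marker, had a like pattern at 186, 319, 112 and 146 in WT and 285, 271, 109 and 109 in KO, and its part in these values was not tested. The labels do not say what the numbers stand for.

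**Figure D5:**
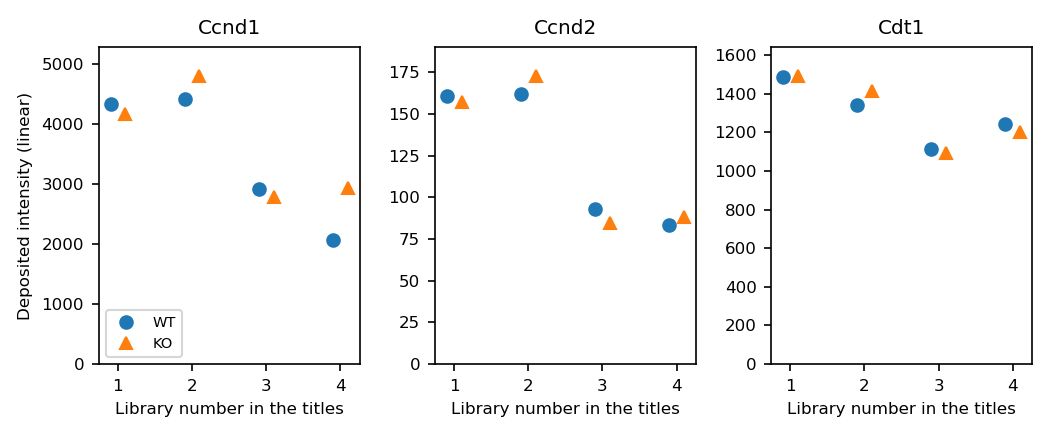
Deposited intensity (linear, vertical axis from 0) of Ccnd1, Ccnd2 and Cdt1 in each library, by its number in the titles (horizontal axis), for the libraries labelled WT (circles) and KO (triangles). In each gene all 4 libraries numbered 1 and 2 lie above all 4 numbered 3 and 4, as in Ccnd1 at 4177 to 4807 against 2073 to 2943. Ccnd2 was kept only through the libraries numbered 1 and 2.

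Other genes of the same pathways were set between the labels in the same test. Of 46 further mitosis genes 39 were kept, and 0 passed in limma, with 17 higher, 22 lower and a median log2 fold change of -0.01, which without WT 4 became 23 higher, 16 lower and 0.01. Kif23, a motor of cytokinesis, Anln, a scaffold of the contractile ring, and Pbk, a mitotic kinase, were the brightest, with log2 fold changes of -0.09, -0.11 and 0.12, and of -0.0014, 0.02 and 0.15 without WT 4. Spc25, a kinetochore subunit chosen after its values were seen, was the only gene of this list whose labels did not overlap, at 550, 604, 598 and 542 in WT and 695, 636, 650 and 664 in KO (log2 fold change 0.21 ± 0.11, adjusted p = 0.795, limma, and 0.19 without WT 4), where 1.13% of all kept genes did not overlap. Of 45 further replication genes 36 were kept and 0 passed, with 17 higher, 19 lower and a median of -0.02, and without WT 4 with 14 higher, 22 lower and a median of -0.02. Rpa1, which coats single-stranded DNA, Uhrf1, a partner of maintenance methylation, and Rfc2, a clamp loader subunit, were at -0.04, -0.04 and -0.17, and at -0.0064, 0.04 and -0.12 without WT 4.

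Of the regulators of the E2F and retinoblastoma pathway, 18 of 20 kept genes had a lower mean in KO and 2 a higher one. That is 10% higher, against 43.4% of all kept genes. The median was -0.17, against -0.04 over all kept genes, and 0 passed the threshold. WT 4 was the highest library in 15 of the 20 (75%), against 44.1% of all kept genes. Without WT 4 the median was -0.06, against -0.0087 over all kept genes. Then 17 of 20 were lower and 3 higher, where 46.2% of all kept genes were higher. Rb1, the retinoblastoma gene, read 1588, 1137, 1450 and 3361 in WT and 1248, 1467, 1350 and 1312 in KO. Cdkn1c, an inhibitor of G1 kinases, and Lin54, the DNA-binding subunit of MuvB, were at -0.18 and -0.41, and at -0.12 and -0.12 without WT 4. Of 13 kept genes of arrest downstream of p53, 0 passed, with 4 higher, 9 lower and a median of -0.14, or -0.02 without WT 4. Gadd45a, a stress-induced arrest gene, read 2469, 2436, 2597 and 486 in WT and 2687, 2351, 2486 and 2595 in KO, so that WT 4 alone was low. Sesn1, a p53 target, read 5412 in WT 4 and 2249 to 3537 elsewhere, and Btg1, an antiproliferative gene, was at -0.19 on the log2 fold scale and at -0.12 without WT 4.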

How the data were processed

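Bone marrow macrophage RNA of 8 libraries was read on Illumina beadchips, per the labels' protocols. The values deposited by the authors are linear probe intensities whose 8 columns share 1 set of quantiles (lowest 68.1, median 86.2, highest 26278), as after quantile normalization; software and background steps are not given in the sources used. Another table was left out, since its 8 per-sample columns carry names that match no label. The labelled genotype set the groups, 4 against 4.

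Gene symbols were those of the platform annotation, checked against RefSeq (GRCm38.p6). For the tests, normexp (offset 50, limma 3.58.1, R 4.3.3) was applied and log2 taken, and probes at 100 or more on at least 4 of 8 arrays were kept. The offset shrinks fold changes of dim probes. The plan assumed raw signals; since the values were already normalized, no further normalization was applied. Labels were compared two-sided with lmFit and eBayes, and p-values were adjusted by Benjamini-Hochberg over all 13479 kept probes. Each gene is given by its brightest kept probe, with intensities printed as deposited. The number of arrays limits the precision.

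The genes, their lists and the tests were chosen with earlier results of these data known. Per role, values are printed for the 4 brightest kept genes and the 4 with the largest absolute fold change, and further lists are named by their 3 brightest; Spc25, Ccnd2, Kit and the genes that differ between probes were chosen after their values were seen. In simulated arrays for this comparison, with 100 of 13479 probes changed per fold size, the fit found 68% of the 2-fold and 95% of the 4-fold changes and made 4 false calls. The simulated spread was drawn independently for each probe and array. In the data WT 4 stood apart over many probes, so these rates may not carry over. Other settings tried were the offset, log2 values alone, the filter, a trended robust variance, array weights, the library number as a block, the mean of a gene's probes and each library left out. A slide block could not be fitted because the files name no slides. Agreement between probes and the split by number were described after the data had been seen. Matplotlib 3.10.9 drew the figures.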

Additional observations from a re-analysis of the deposited data

Results flagged for a closer look

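In 78 sets of 4 libraries (each kept cell cycle gene and each group level, in each label), the gap between the most extreme library and its nearest neighbour was divided by the range of the 4, and values above 0.829 are given here. Chance gives about 1 in 20 such sets. Plk1 was high in WT 4 at 1241, against 711 to 744 in the other WT libraries (ratio 0.939). Mcm2 was low in WT 4 at 219 (0.897), and Rrm1 was low in WT 4 at 573 (0.906). Ccne2 was high in KO 3 at 193, with the other KO libraries at 160 to 166 (0.829). The median level of the 13 replication genes, as log2 difference from each gene's mean, was low in WT 4 at -0.16 (0.898) and high in KO 4 at 0.08 (0.832). The other 3 KO libraries lay between -0.0086 and 0.0062.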

How the results depend on the processing

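No alternative called a probe or a cell cycle gene: both counts were 0 in limma under all 16 alternatives, and the lowest adjusted p of a cell cycle gene ran from 0.505 to 1.0 over them. With the mean of all kept probes of a gene, the median log2 fold change was 0.21 for replication and 0.14 for mitosis, against 0.0023 and 0.0035 with the brightest probe. Over all kept genes that mean gave a median of -0.01, against -0.04 with the brightest probe. Leaving out 1 library at a time gave -0.040 (without KO 2) to 0.083 (without KO 3) for replication, -0.03 to 0.05 for mitosis and -0.08 to 0.27 for G1 genes and inhibitors, and the value of -0.08 was that without WT 4. The sign of the fold change turned in 14 of 36 genes without WT 4, in 12 with array weights, in 6 with the mean of probes and in 0 to 5 under the other alternatives. Deviations of same-numbered libraries correlated at 0.46, -0.17, 0.14 and 0.13, not above 0.1 in every pair, so the numbers were not used as pairs; with the number as a replicate block 0 probes were called, the medians stayed at 0.0023 and 0.0035, and 0 of 36 signs turned. Probes near the array median give no level, which limits 8 genes.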
